A study of Rattus norvegicus with 16 samples.

Results

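Insulin and insulin-like growth factor 1 (IGF1) signal through PI3 kinase, and 9 genes of that route were followed in the right ventricle of female rats under pressure load. The genes were chosen by name, with earlier results of these data known. Pik3r1 was included because it was lower after banding in receptor-deficient hearts, and Igf1 because it differed between genotypes under load, so those 2 differences are described here and nothing is drawn from a test of them. The other 7 are Igf1r, Insr, Irs1, Irs2, Akt1, Foxo1 and Foxo3. All 9 have exactly 1 entry among the 32754 gene entries of each file, and all 9 passed the filter on low counts.

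The rats were Sprague Dawley females aged 20 to 21 weeks that were mutant for estrogen receptor alpha (ERalpha -/-, called KO here) or wild type (WT). Each genotype had pulmonary artery banding for 10 weeks (PAB), a lasting narrowing that raises the pressure this ventricle must work against, or a sham operation (SHAM). The groups KO PAB, KO SHAM, WT PAB and WT SHAM hold 4 stranded mRNA libraries each, 16 in all, made from 10 mg of tissue. The labels name neither the allele nor whether the 4 libraries of a group are separate animals, so p-values measure the spread between these libraries, which may be technical.

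Total counts ran from 22168110 to 34718633 per library. Esr1, which encodes that receptor, had 7 to 21 counts in the 8 KO libraries and 70 to 139 in the 8 WT libraries, so each library matched its labelled genotype. The 7 cardiomyocyte markers, among them the cardiac troponins, summed to between 20813 and 40647 CPM (counts scaled to the library total). The heavy chain gene Myh6 gave the largest part, 9520 to 23400 CPM. The ventricular light chain gene Myl2 gave little, 43.8 to 121 CPM. Libraries WT SHAM 2, WT SHAM 3 and KO SHAM 4 stood apart, with the fat cell hormone Adipoq at 45.6, 28.1 and 11.1 CPM, against at most 5.21 CPM in the other 13. Their 8 mesothelial markers summed to 148, 79.4 and 132 CPM, against at most 47.4 CPM elsewhere. These 3 are sham libraries, so banding differences of the 9 genes are also given without them where a call or the size moved by much.

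In this pathway the ligand binds the insulin receptor or its close relative the IGF1 receptor, which phosphorylate the docking proteins IRS1 and IRS2. The docking proteins recruit PI3 kinase through its regulatory subunit, the lipid product of the kinase activates AKT, and AKT phosphorylates FOXO transcription factors so that they leave the nucleus. In the heart the pathway is known for glucose uptake, physiological growth and restraint of protein breakdown. In human endothelial cells the ERalpha protein has been found bound to the regulatory subunit of PI3 kinase.

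**Figure D1:**
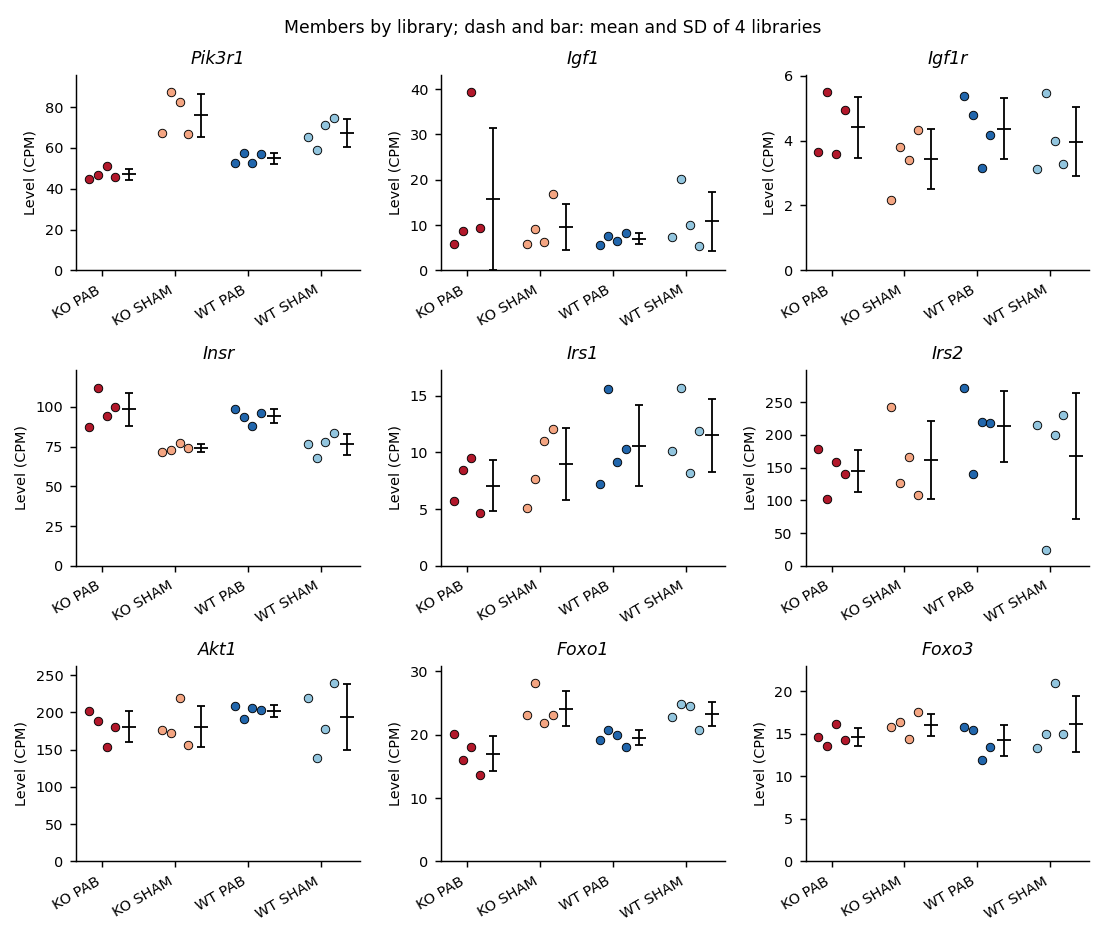
Level in CPM (counts scaled to the library total) of each of the 9 genes in each of the 16 libraries, by group, with the mean and SD of 4 libraries beside the points and each axis starting at 0. Pik3r1, which was chosen on its KO libraries, lies at 44.7 to 57.4 CPM in banded hearts and 58.9 to 87.2 CPM in sham hearts. Insr lies at 87.1 to 112 CPM in banded and 67.8 to 83.9 CPM in sham hearts. Single libraries stand far out for Igf1 (39.3 CPM) and Irs2 (23.9 CPM).

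After banding the gene of the receptor and that of a transcription factor at the end of the pathway moved in opposite directions. Averaged over genotypes, the insulin receptor gene Insr rose by about 1.28-fold in banded hearts and the transcription factor gene Foxo1 fell to 0.768 of its sham level. The regulatory subunit gene Pik3r1 was at 0.71 of its sham level. The other 6 genes did not pass the test in this comparison. Genes were tested with edgeR's quasi-likelihood test on all genes at once and called at a Benjamini-Hochberg adjusted p below 0.05. Of the 8 genes other than Pik3r1, 2 were called in the averaged comparison, against 5.09% of all 13458 genes tested. Because the genes were picked with earlier results of these data known, this count is described and nothing is drawn from it. Pik3r1 was past the threshold too, but it was chosen on the KO libraries that enter this contrast, so its call is not counted.

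Pik3r1 encodes the regulatory subunit that stabilises the catalytic subunit of PI3 kinase and docks it on phosphorylated IRS proteins. Its level was 44.7, 46.9, 50.9 and 45.6 CPM in the KO PAB libraries, against 67.5, 87.2, 82.5 and 66.7 CPM in KO SHAM. Every KO PAB library lay below every KO SHAM library, which is the difference the gene was chosen for. Such a downward separation in KO was shown by 4.32% of genes tested. The fitted log2 fold change was −0.69 (SE 0.10), and the means were 47.0 ± 2.73 CPM in KO PAB and 75.9 ± 10.4 CPM in KO SHAM (SD, n = 4 each). The WT libraries did not enter the choice of this gene. There Pik3r1 was at 52.5, 57.4, 52.8 and 57.2 CPM in WT PAB, against 65.3, 58.9, 71.1 and 74.6 CPM in WT SHAM. Again the groups did not overlap, a separation downward that 2.33% of all genes tested showed in WT. The log2 fold change in WT was −0.30 (SE 0.10), with an adjusted p of 0.363 by edgeR, so it did not pass the test. The means were 55.0 ± 2.68 CPM in WT PAB and 67.5 ± 6.88 CPM in WT SHAM.

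By group mean, Pik3r1 was highest in KO SHAM and then in WT SHAM, and these neighbours overlapped. WT PAB and then KO PAB followed, each below the group before it without overlap. Under banding the 4 KO libraries lay below the 4 WT libraries, as for 1.63% of genes tested, with a log2 fold change of −0.22 (SE 0.10) that did not pass edgeR's test (adjusted p 0.999). This comparison shares the KO PAB libraries with the one that chose the gene. In sham hearts the genotypes differed by 0.17 (SE 0.10, adjusted p 0.996), KO over WT. The difference between the KO and WT banding effects was −0.39 (SE 0.14) and is described only, since it contains the difference the gene was chosen for.

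Pik3r1 ran from 44.7 to 57.4 CPM over the 8 banded libraries and from 58.9 to 87.2 CPM over the 8 sham libraries. The KO libraries among them were used to choose the gene. The share of all genes tested that separate downward in this way is not given here, so nothing is drawn from that separation. Without the 3 sham libraries that stand apart the log2 fold change was −0.74 (SE 0.09) in KO and −0.34 (SE 0.10) in WT. Summed mesothelial markers were 22.1 to 29.8 CPM in KO PAB and 29.2 to 132 CPM in KO SHAM, and 23.7 to 28.8 CPM in WT PAB and 21.3 to 148 CPM in WT SHAM. In the 3 sham libraries highest in these markers the median Pik3r1 level was 66.7 CPM, against 74.6 CPM in the other 5. The part of cell types in the level of Pik3r1 was not tested. In bulk tissue, fewer cells of a type and less RNA per cell cannot be told apart.

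**Figure D2:**
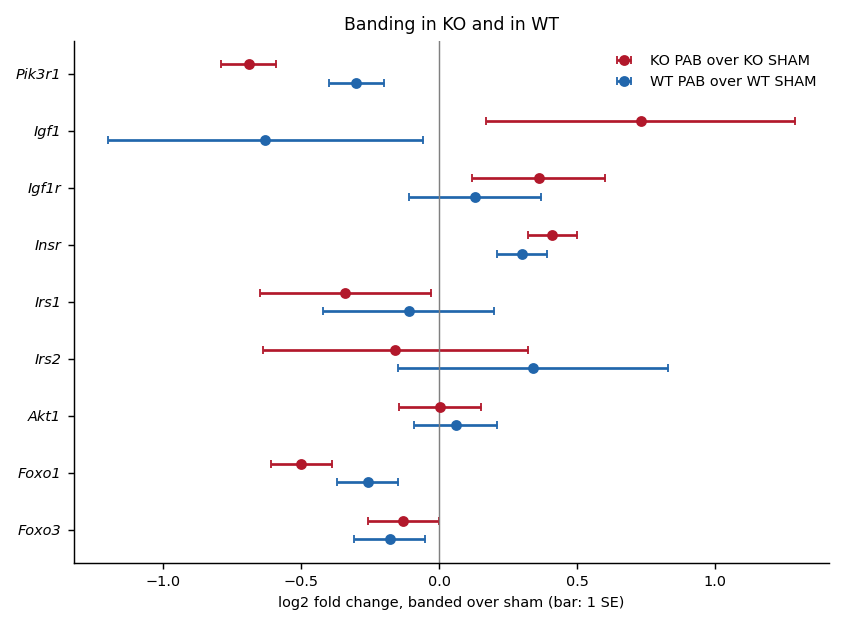
Fitted log2 fold change of each of the 9 genes, banded over sham, in KO (upper point of each pair) and in WT (lower point), with bars of 1 SE. Pik3r1 (−0.69 and −0.30), Foxo1 (−0.50 and −0.26) and Insr (0.41 and 0.30) have the same sign in both genotypes, and the bars of Igf1 and Irs2 are the longest.

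Insr encodes the insulin receptor, a tyrosine kinase at the head of the pathway. It had 87.1, 112, 94.2 and 100 CPM in KO PAB, against 71.7, 72.7, 77.6 and 74.4 CPM in KO SHAM. In WT the levels were 98.5, 93.9, 88.2 and 96.4 CPM after banding, against 76.9, 67.8, 77.9 and 83.9 CPM after sham surgery. Banded and sham libraries did not overlap in either genotype, an upward separation that 5.86% of genes tested showed in KO and 2.6% in WT. Over both genotypes, 8 banded libraries lay above 8 sham libraries, as for 0.646% of genes tested. The averaged rise was 0.35 on the log2 scale (SE 0.06, adjusted p 0.00592 by edgeR). In KO alone the difference was 0.41 (SE 0.09, adjusted p 0.0453), and in WT 0.30 (SE 0.09, adjusted p 0.287), where it did not pass. The means were 98.4 ± 10.6 CPM in KO PAB and 74.1 ± 2.55 in KO SHAM, and 94.2 ± 4.42 in WT PAB and 76.6 ± 6.63 in WT SHAM (SD, n = 4 each).

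The call for Insr in KO is a narrow one. It was lost in 16 of 24 alternative fits, with adjusted p from 0.000492 to 0.154, whereas the averaged call held in all 23 fits run, with adjusted p from 1.58e-06 to 0.0206. Between genotypes Insr differed by 0.06 (SE 0.09, adjusted p 0.999) under banding and by −0.05 (SE 0.09, adjusted p 0.996) in sham hearts, KO over WT. The banding effects of the genotypes differed by 0.11 (SE 0.12, adjusted p 0.999). Insr also varied little among replicates, with an SD within groups of 0.11 on the log2(CPM + 1) scale, smaller than in all but 8.96% of genes tested.

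Foxo1 encodes a forkhead transcription factor that AKT holds out of the nucleus when insulin or IGF1 is present. It fell by 0.38 on the log2 scale in the averaged comparison (SE 0.08, adjusted p 0.0155 by edgeR). Its levels were 20.1, 16.0, 18.1 and 13.7 CPM in KO PAB, against 23.1, 28.1, 21.9 and 23.1 CPM in KO SHAM. The KO groups did not overlap, a downward separation that 4.32% of genes tested showed. In WT it was at 19.1, 20.8, 19.9 and 18.0 CPM after banding, against 22.8, 24.9, 24.6 and 20.8 CPM after sham surgery, and the groups met at 20.8 CPM. Within a genotype the log2 differences were −0.50 in KO (SE 0.11, adjusted p 0.0549) and −0.26 in WT (SE 0.11, adjusted p 0.411), and both missed the threshold. In KO the difference passed in 4 of 24 alternative fits, among them DESeq2 (adjusted p 0.0043), and in WT in 0 of 24. With the 3 outlying sham libraries left out, the averaged difference was −0.34 (SE 0.10) and just missed the threshold, with an adjusted p of 0.0503, while that in KO was −0.52 (SE 0.13) and passed it, with 0.0496. In WT the difference was then −0.16 (SE 0.14, adjusted p 0.841).

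The related factor gene Foxo3 did not pass the test. It averaged 14.6 ± 1.07 CPM in KO PAB, 16.0 ± 1.27 in KO SHAM, 14.2 ± 1.81 in WT PAB and 16.1 ± 3.31 in WT SHAM (SD, n = 4 each), and all groups overlapped. The averaged log2 difference was −0.16 (SE 0.09, adjusted p 0.322 by edgeR). Without the 3 sham libraries it was −0.04 (SE 0.08, adjusted p 0.795).

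The promoters of Insr, Pik3r1 and Foxo1, the genes with the smallest p in the averaged banding comparison, are shown because FOXO factors are known, in flies and in mammalian muscle cells, to raise transcription of the insulin receptor gene. Each is the RefSeq window from 250 bases before to 50 bases after the annotated start, in build GRCr8, read 5′ to 3′ on the strand of the gene. Capitals mark matches, on either strand, to the FOXO element GTAAACA or to the estrogen response site's 5-base arm GGTCA. The windows are chr12:6128754-6129053 on the minus strand for Insr, chr2:34697611-34697910 on the minus strand for Pik3r1 and chr2:138462724-138463023 on the plus strand for Foxo1.
Insr: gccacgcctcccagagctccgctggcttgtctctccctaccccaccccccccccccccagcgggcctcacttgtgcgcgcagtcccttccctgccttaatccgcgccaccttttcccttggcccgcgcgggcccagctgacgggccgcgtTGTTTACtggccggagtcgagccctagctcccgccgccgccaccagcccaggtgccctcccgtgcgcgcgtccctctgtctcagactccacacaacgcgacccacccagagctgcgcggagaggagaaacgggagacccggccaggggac
Pik3r1: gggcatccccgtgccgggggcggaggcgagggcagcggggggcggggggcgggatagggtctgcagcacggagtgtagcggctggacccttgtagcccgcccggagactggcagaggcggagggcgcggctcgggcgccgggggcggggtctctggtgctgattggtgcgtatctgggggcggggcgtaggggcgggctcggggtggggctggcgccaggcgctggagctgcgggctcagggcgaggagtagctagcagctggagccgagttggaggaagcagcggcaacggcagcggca
Foxo1: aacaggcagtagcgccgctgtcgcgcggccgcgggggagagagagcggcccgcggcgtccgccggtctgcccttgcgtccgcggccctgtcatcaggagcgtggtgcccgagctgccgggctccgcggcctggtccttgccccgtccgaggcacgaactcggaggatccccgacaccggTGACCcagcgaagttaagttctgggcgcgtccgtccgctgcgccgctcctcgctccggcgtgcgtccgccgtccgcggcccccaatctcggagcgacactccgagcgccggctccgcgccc

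The Insr window held the FOXO element in its reverse form, TGTTTAC, 100 to 94 bases before the start, and the Pik3r1 window held none of the motifs searched. Of all 33469 promoters of the same length 3.78% held that element, and of the 7 of the 9 genes with a promoter in the table Insr was the only 1. The arm GGTCA, which 40.5% of promoters held, occurred once in each of the windows of Foxo1, Akt1 and Igf1. The full estrogen response element GGTCANNNTGACC, which is its own reverse complement and contains the arm at each end, was in 0.0269% of promoters and in none of the 7. The windows of Insr, Pik3r1 and Foxo1 were rich in G and C (71.3%, 75.3% and 75.0%, against a median of 51.7% over all promoters). A match is a match of letters and not a measured binding site.

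Igf1, the gene of the growth factor ligand, carried its difference between genotypes under load in a single library. The KO PAB libraries had 5.84, 8.72, 39.3 and 9.43 CPM, against 5.57, 7.69, 6.51 and 8.17 CPM in WT PAB. KO PAB 3 was 1 of 4, and the other 3 KO libraries overlapped the WT range. With all libraries the log2 fold change, KO over WT, was 1.18 (SE 0.57). Without KO PAB 3 it was 0.19 (SE 0.43), and the KO PAB mean was 8.00 ± 1.90 CPM (SD, n = 3) beside 6.99 ± 1.17 CPM in WT PAB (SD, n = 4).

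In sham hearts, which the choice of Igf1 did not use, its levels were 5.86, 9.09, 6.33 and 16.8 CPM in KO and 7.47, 20.1, 10.0 and 5.43 CPM in WT. The log2 fold change was −0.18 (SE 0.56, adjusted p 0.996 by edgeR), KO over WT. Group means ran, from high to low, KO PAB, WT SHAM, KO SHAM and WT PAB, and every pair of neighbours in that order overlapped. After banding Igf1 differed by 0.73 in KO (SE 0.56, adjusted p 0.591) and by −0.63 in WT (SE 0.57, adjusted p 0.671). Both signs turned on single libraries or on the 3 sham libraries: without KO PAB 3 the KO value was −0.26, and without those 3 the KO value was 1.16 and the WT value 0.12. The averaged difference was 0.05 (SE 0.40) with all libraries, 0.64 (SE 0.43) without the 3 sham libraries and −0.44 (SE 0.29) without KO PAB 3.

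The 4 libraries highest in Igf1 were KO PAB 3, WT SHAM 2, KO SHAM 4 and WT SHAM 3, at 39.3, 20.1, 16.8 and 10.0 CPM. They were also the 4 with the highest summed macrophage markers (343, 315, 276 and 216 CPM, against at most 158 CPM in the other 12). Of the 8 macrophage markers, such as the receptor gene Csf1r and the scavenger receptor gene Cd163, 6 had these same 4 libraries on top. All 8 were higher in KO PAB 3 than in any other banded library. Their sums ran from 130 to 343 CPM in KO PAB, 96.6 to 276 in KO SHAM, 119 to 158 in WT PAB and 92.2 to 315 in WT SHAM, and none of the 8 was at 0 in any library.

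Part of the fibroblast markers and part of the adipocyte markers were high in the same libraries. Of 6 fibroblast markers 3 had the same 4 libraries on top, and Dcn, Col1a1 and Tcf21 did not. The 6 fibroblast markers summed to 1942 CPM in KO PAB 3, 3465 in WT SHAM 2, 2497 in KO SHAM 4 and 2127 in WT SHAM 3, against at most 1446 in the other 12 libraries. Over groups these sums were 848 to 1942 CPM in KO PAB, 1056 to 2497 in KO SHAM, 885 to 1446 in WT PAB and 1038 to 3465 in WT SHAM. Of 8 adipocyte markers 6 had the same 4 libraries on top, and Fabp4 and Plin4 did not. Fabp4 had 211 CPM in KO PAB 3, against 226 to 254 CPM in the other KO PAB libraries. The sum of all 8 was lowest of the 16 libraries in KO PAB 3 (387 CPM), and WT SHAM 2 (444 CPM) and KO SHAM 4 (409 CPM) were lowest in their groups. That sum, to which the lipid proteins Fabp4 and Plin4 give most in every library, was 387 to 471 CPM in KO PAB, 409 to 508 in KO SHAM, 440 to 532 in WT PAB and 444 to 504 in WT SHAM. Adipoq had 142 counts in KO PAB 3 and at most 1 in the other KO PAB libraries, and Plin1 21 and 0 counts. The part of these cell types in the level of Igf1 was not tested.

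**Figure D3:**
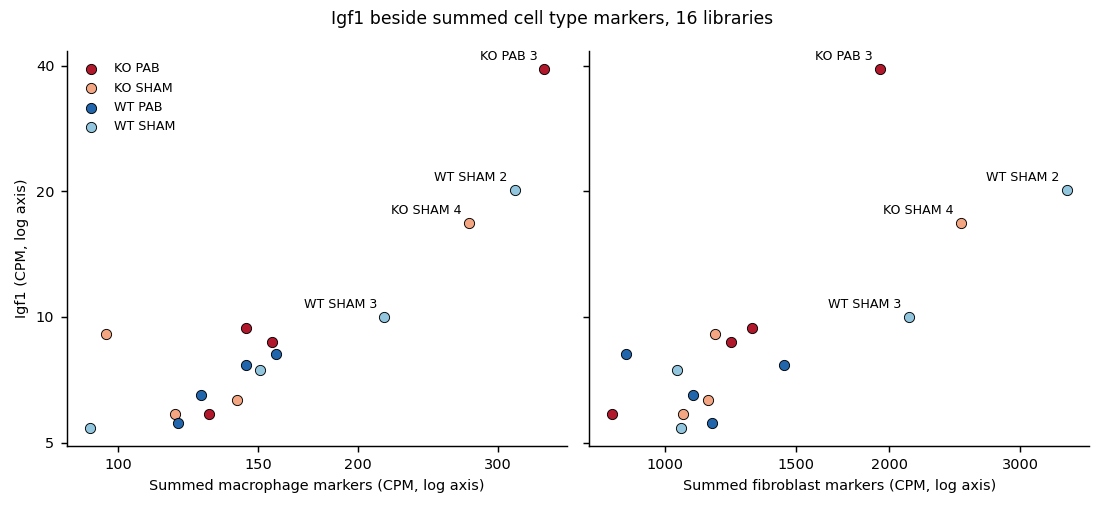
Igf1 level of each of the 16 libraries (CPM, log axis) against the summed level of 8 macrophage markers (left) and 6 fibroblast markers (right), also in CPM on log axes, coloured by group. KO PAB 3, WT SHAM 2, KO SHAM 4 and WT SHAM 3 are the 4 highest libraries on every axis.

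By a fixed rule, the 5 genes whose pattern over the 16 libraries was most like that of Igf1 were Orai2, Ccr1, Ncf4, Fcgr2b and Slc44a1. Likeness was the mean absolute difference between z-scores of log2(CPM + 1), which was 0.242, 0.322, 0.325, 0.368 and 0.371 for these genes, against a median of 1.1 over 10915 candidates. Ccr1 encodes a chemokine receptor, Ncf4 a part of the phagocyte oxidase and Fcgr2b a receptor for antibody. These 3 and Orai2, the closest, were low, averaging 1.24 to 1.6 CPM, and Slc44a1 averaged 30 CPM. Whether the 5 genes share a cell type with Igf1 was not tested. For Pik3r1 the 5 most like were Fam78a, Cln6, Yeats2, the cation transporter gene Slc22a3 and the hypoxia-inducible factor gene Hif1a, with values of 0.367 to 0.447 against a median of 1.12.

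Igf1r, the receptor gene for IGF1, was among the lowest in counts of the 9, with 68 to 187 counts per library. It averaged 4.41 ± 0.943 CPM in KO PAB, 3.43 ± 0.921 in KO SHAM, 4.37 ± 0.947 in WT PAB and 3.97 ± 1.07 in WT SHAM (SD, n = 4 each). All 4 groups overlapped. The averaged banding difference was 0.25 (SE 0.17, adjusted p 0.404 by edgeR). Without the 3 sham libraries it was 0.48 (SE 0.18, unadjusted p 0.0192, adjusted p 0.119), and it did not pass either way.

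Irs2, the gene of a docking protein whose liver transcript rises in fasting, had the widest spread of the 9. Its levels were 178, 102, 159 and 140 CPM in KO PAB, against 243, 127, 167 and 109 CPM in KO SHAM. In WT they were 272, 140, 220 and 219 CPM after banding and 216, 23.9, 200 and 231 CPM after sham surgery. WT SHAM 2 was the lowest of all 16 libraries, with 816 counts, and every other library had at least 2681. The same library had the lowest summed cardiomyocyte markers, 20813 CPM. KO PAB 3 came next at 22730 CPM, with Irs2 at 159 CPM. The 2 low sums differ in make-up. Myh6, the largest part of both, was at 11600 CPM in WT SHAM 2 and 9520 CPM in KO PAB 3. Every other cardiomyocyte marker was at its lowest of the 16 libraries in WT SHAM 2, such as Tnnt2 at 3080 CPM, against 4640 CPM in KO PAB 3. The part of cell types in the level of Irs2 was not tested. Without WT SHAM 2 the WT SHAM mean was 216 ± 15.6 CPM (SD, n = 3), beside 168 ± 96.8 CPM with it. The log2 difference after banding was −0.16 in KO (SE 0.48) and 0.34 in WT (SE 0.49), and without WT SHAM 2 the WT value was −0.02 (SE 0.26). Without the 3 sham libraries the values were −0.30 (SE 0.25) in KO and −0.07 (SE 0.29) in WT.

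Under banding Irs2 differed between genotypes by −0.55 (SE 0.49, adjusted p 0.999 by edgeR), KO over WT, and the groups overlapped. Without WT SHAM 2, which serves only the shared estimate of spread here, the value was −0.55 (SE 0.25) with an adjusted p of 0.889. The within-group SD of Irs2 was 0.86 on the log2(CPM + 1) scale, larger than in 98.3% of genes tested. That of Igf1 was 0.75, larger than in 97.5%, and that of Irs1 0.43, larger than in 89.9%, against a median of 0.19 over all genes tested. Pik3r1 (0.13), Foxo1 (0.15) and Foxo3 (0.17) were below that median, as was Insr.

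Irs1, the other main docking protein gene, was lower on average in KO and did not pass the test. It averaged 7.07 ± 2.26 CPM in KO PAB, against 10.6 ± 3.59 in WT PAB, and 8.95 ± 3.18 CPM in KO SHAM, against 11.5 ± 3.19 in WT SHAM (SD, n = 4 each). Averaged over surgeries the log2 difference was −0.47 (SE 0.22, unadjusted p 0.0483, adjusted p 0.989 by edgeR). Akt1, the kinase gene below PI3 kinase, had 181 ± 20.4 CPM in KO PAB, 181 ± 27.3 in KO SHAM, 202 ± 8.09 in WT PAB and 194 ± 44.7 in WT SHAM, and the averaged banding difference was 0.03 (SE 0.11, adjusted p 0.891), or −0.12 (SE 0.08, adjusted p 0.382) without the 3 sham libraries.

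No gene of the 9 passed edgeR's test between genotypes, under banding or in sham hearts, against 0.00743% of all genes tested in each. Averaged over surgeries 0 of the 9 passed too, against 0.00743%. There 1 of the 9, Irs1, had an unadjusted p below 0.05, beside 664 of 13458 genes tested. In all 3 comparisons the single gene past the test was Esr1 itself. At an unadjusted p below 0.05 there was 1 of the 9 under banding (Pik3r1), beside 608 of 13458 genes tested. In sham hearts there were 0 of the 9, beside 273 of 13458. DESeq2 and limma-voom also called 0 of the 9. No gene of the 9 passed the test of whether the banding effect depends on genotype, where 0 of 13458 genes were called and the other tools called 0 of the 9. Leaving out Pik3r1, whose choice enters it, 0 had an unadjusted p below 0.05, beside 237 of 13458 genes tested. In WT alone banding gave 0 calls among the 9, against 0.00743% of genes tested, and 0 by the other tools. There 3 of the 9 (Pik3r1, Insr and Foxo1) had an unadjusted p below 0.05, beside 1575 of 13458 genes tested. In KO, of the 8 genes other than Pik3r1, 1 was called, Insr upward, against 0.632% of genes tested. When 1 library at a time was left out, Insr was called without KO PAB 1, WT PAB 1 or WT SHAM 2 and not called without any of the other 13.

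Around these 9 genes, 88 others of the pathway were listed, and 81 were abundant enough to be tested. The 7 left out were Ins1 and Ins2 (0 counts in every library), Igfbp1, Igfbp2, Igfals, Insrr and Irs4. In the averaged banding comparison 5 of the 81 rose and 3 fell, which is 9.88% beside 5.09% of all genes tested, and the median log2 fold change was 0.03 beside −0.02 over all genes. These lists too were chosen with earlier results of these data known, so nothing is drawn from the difference in share.

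The 8 genes belong to the adaptors, the phosphatases, the PI3 kinase subunits and the FOXO branch. Irs3, a docking protein of rodent fat cells, fell by 1.11 (SE 0.23, adjusted p 0.0143 by edgeR), to 0.571 ± 0.117 CPM in KO PAB and 0.60 ± 0.141 in WT PAB, against 1.00 ± 0.298 in KO SHAM and 1.60 ± 0.741 in WT SHAM (SD, n = 4 each). Without the 3 sham libraries high in Adipoq its difference was −0.74 and missed the threshold (adjusted p 0.0524). Gab1, another docking adaptor, fell by 0.25 (SE 0.07, adjusted p 0.0487), a call lost in 20 of 23 alternative fits. The other 7 of 9 adaptors tested did not pass.

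Among phosphatases, 2 of 11 rose. Ptpn11, which encodes the tyrosine phosphatase SHP2 that acts downstream of many growth factor receptors, rose by 0.41 (SE 0.08, adjusted p 0.00927 by edgeR). It had 451 ± 30.5 CPM in KO PAB, against 339 ± 36.5 in KO SHAM, and 442 ± 54.6 CPM in WT PAB, against 335 ± 24.9 in WT SHAM (SD, n = 4 each). Ppp2r5b, a targeting subunit of the phosphatase that acts on AKT, rose by 0.46 (SE 0.08, adjusted p 0.00814). Neither gene overlapped between banded and sham libraries in either genotype, a separation upward that 1.22% of genes tested showed, and both calls held in all 23 alternative fits.

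Of 13 other subunits and regulators of PI3 kinase 1 rose, the regulatory subunit gene Pik3r3 (0.49, SE 0.13, adjusted p 0.0375 by edgeR). It averaged 10.4 ± 2.05 CPM in KO PAB and 7.33 ± 1.46 in KO SHAM, and 8.55 ± 1.27 in WT PAB and 6.15 ± 1.02 in WT SHAM (SD, n = 4 each), with overlap in both genotypes. Its call was lost in 11 of 23 alternative fits. The third regulatory subunit gene of this kind, Pik3r2, differed by −0.17 (adjusted p 0.184), and the catalytic subunit genes Pik3ca and Pik3cb by 0.07 and −0.13 (adjusted p 0.534 and 0.331). The difference between Pik3r1 and its relatives was not tested.

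In the FOXO list 2 of 18 genes rose and 1 fell. Foxo4, the other FOXO family member called, rose by 0.37 (SE 0.08, adjusted p 0.02 by edgeR), opposite in sign to Foxo1. It had 86.5 ± 4.82 CPM in KO PAB, against 64.6 ± 3.71 in KO SHAM, and 81.2 ± 13.0 CPM in WT PAB, against 65.3 ± 10.0 in WT SHAM (SD, n = 4 each). Gadd45a, a growth arrest and DNA repair gene, rose by 0.70 (SE 0.15, adjusted p 0.0156), and Bcl2l11, which encodes the cell death protein BIM, fell by 0.67 (SE 0.16, adjusted p 0.0294). The atrophy ligase genes Trim63 and Fbxo32, FOXO targets in muscle, differed by −0.0034 and −0.07, and the metabolic target Pdk4 by −0.04, none past the test (adjusted p 0.994, 0.713 and 0.959). Foxo4 missed the threshold without the 3 sham libraries (adjusted p 0.0599), and Bcl2l11 in 10 of 23 alternative fits.

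None of the 23 genes of the AKT and mTOR branch passed, with a median of 0.06. The nearest by p were the ribosomal S6 kinase gene Rps6kb2 (0.21, adjusted p 0.116) and Akt1s1, whose protein restrains mTOR (0.31, adjusted p 0.117). None of the 6 ligand and binding protein genes tested passed either, with a median of −0.46. Igfbp3, the main carrier of IGF1 in blood, differed by −0.84 (SE 0.29, adjusted p 0.107) and Igfbp5 by −0.50 (SE 0.24, adjusted p 0.241). Igf2r, which clears IGF2 and carries lysosomal enzymes, differed by 0.28 (SE 0.09, adjusted p 0.0722).

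**Figure D4:**
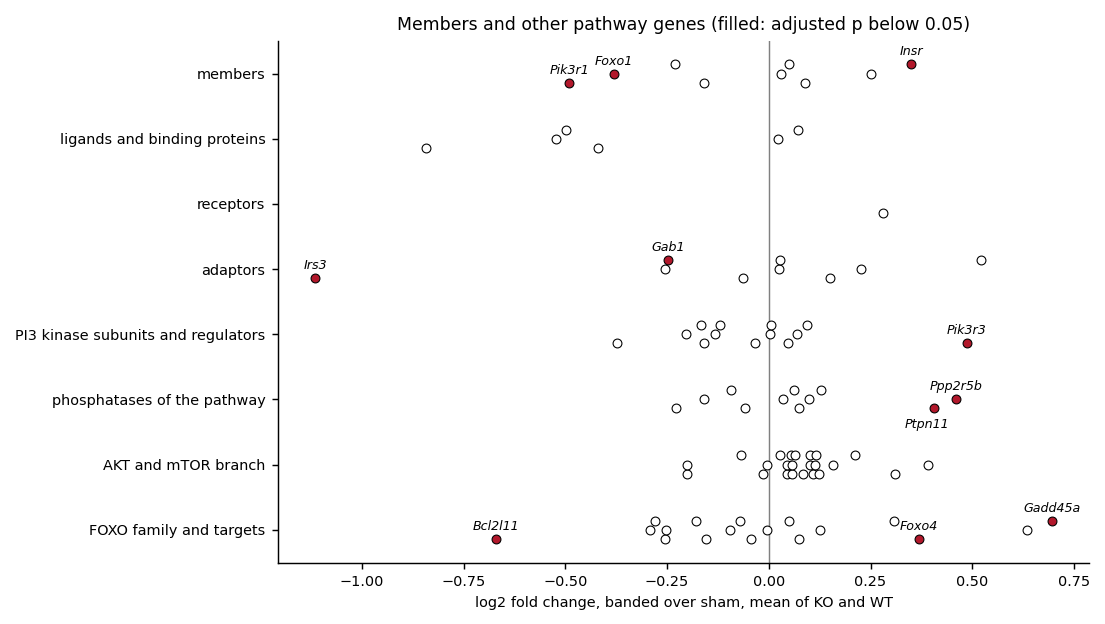
Log2 fold change, banded over sham and averaged over KO and WT, of the 9 genes (top row) and of 81 other pathway genes grouped by role, 1 point a gene, filled where the adjusted p is below 0.05. The filled points are Insr, Pik3r3, Ptpn11, Ppp2r5b, Foxo4 and Gadd45a above 0 and Pik3r1, Foxo1, Irs3, Gab1 and Bcl2l11 below 0.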

How the data were processed

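Right ventricle mRNA of 16 rat libraries was sequenced. The authors deposited 1 file per library with an expected count per gene symbol, as whole numbers. Per the submitters' processing notes STAR 2.5.3a, RSEM 1.3.0 and the build Rnor_6.0 were used. Annotation, strand setting and rounding are not given in the sources used here. All 16 libraries had 0 counts for 13748 of 32754 entries. Among 274 symbols with repeated entries is 1 gene listed here, Grb2, whose earliest entry was used.

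Tests on the counts used edgeR 4.0.16 (R 4.3.3): TMM scaling, filterByExpr (min.count 10), and a robust quasi-likelihood fit of 4 group means over all 16 libraries, which left 13458 genes. SE is the log2 fold change over the square root of F. Levels are CPM on the scaled library total. The fit was tested on simulated data. Groups came from sample titles. Alternatives were DESeq2 1.42.0, limma-voom from limma 3.58.1, RLE scaling, a block for replicate number, a stricter filter (1 CPM in 4 or more libraries) or none, fits of only the groups compared, and leaving out each library. Added after the data were seen was a fit that leaves out the 3 sham libraries scoring above 0.4 for adipocyte and for mesothelial markers (mean z-score of log2(CPM + 1)). Members and lists were chosen with earlier results of these data known. Named genes are the 9, every other pathway gene past the test, the 2 of each list with the smallest p in the averaged banding comparison, and the 5 most like Igf1 and Pik3r1 among genes of at least 1 CPM. Trim63, Fbxo32, Pdk4, Pik3ca and Pik3cb were named after their values were seen. With 4 libraries a group, small differences cannot be resolved. Promoter sequences are RefSeq's for GRCr8, another assembly than the counts.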

Additional observations from a re-analysis of the deposited data

Results flagged for a closer look

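Of 36 groups of 4 libraries (9 genes in 4 groups), 2 held a library far from the other 3 by Dixon's criterion at the 95% level, and chance gives about 1 in 20. In KO PAB the highest Igf1 level, 39.3 CPM in KO PAB 3, stood apart from 5.84, 8.72 and 9.43 CPM in the others. Igf1 was chosen on values that include this library, so the criterion adds nothing there. In WT SHAM the lowest Irs2 level, 23.9 CPM in WT SHAM 2, stood apart from 216, 200 and 231 CPM.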

How the results depend on the processing

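Of 1485 recomputed log2 fold changes (63 values), 1387 kept their direction and their side of the threshold, 23 lost a call, 4 gained one and 71 changed sign, none of the last from a called value. The cause of each was not tested. The averaged banding comparison had 3 calls in every alternative but 1: without the 3 sham libraries there were 2, with Foxo1 lost. In KO alone the 2 calls (Insr, and Pik3r1 by its choice) became 1 with no filter and with only the KO groups, and 0 with the replicate block. DESeq2 and the edgeR fit without the 3 sham libraries kept both and also called Foxo1 (adjusted p 0.0043 and 0.0496). Leaving out 1 library gave 0 to 3. Without KO SHAM 1, 2 or 3 or KO PAB 2 or 4 there were 0. The replicate numbers were not taken as pairs: the library most correlated with another of its own number was found for 2 of 16. Under the block the adjusted p in KO by edgeR was 0.0904 for Insr and 0.0767 for Pik3r1, and 0 of 13458 genes passed. No other call among the 9 changed under the block.

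Other pathway genes called in the averaged comparison fell to 5 without WT SHAM 1, WT SHAM 3, WT PAB 3, KO PAB 2 or KO PAB 4. In KO there were 7 by DESeq2, 3 with only the KO groups, 3 without the 3 sham libraries, 5 without WT PAB 1 and 1 without WT SHAM 2, and in WT 3 by DESeq2, against 0 each. Genes called in KO numbered 85, and 485 by DESeq2, 57 with no filter, 155 with only the KO groups, 344 without the 3 sham libraries and 0 to 275 without 1 library. In the averaged comparison they numbered 685, and 1328 by DESeq2 and 356 to 964 without 1 library. In WT they numbered 1, and 106 by DESeq2 and 0 by limma-voom. DESeq2 called 4 genes between genotypes under banding, against 1.

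Sign changes without the 3 sham libraries were in banding in KO for Akt1 (−0.0587), in banding in WT for Igf1 (0.124), Irs2 (−0.0677), Akt1 (−0.176) and Foxo3 (0.000772), and in genotype under sham for Igf1 (0.144) and Foxo3 (0.137). They were in the interaction for Akt1 (0.118) and Foxo3 (−0.0851), in averaged banding for Irs2 (−0.185) and Akt1 (−0.118), and in averaged genotype for Insr (−0.0246). In genotype under sham Irs2 turned to 0.269 in limma-voom and 0.125 with the replicate block, and Foxo3 to 0.00109 in DESeq2, 0.0123 in limma-voom and 0.00296 with the block. Averaged banding of Igf1 turned to −0.0615 in limma-voom and −0.0261 with the block, and genotype under banding of Igf1r to −0.0106 with the block.

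Leaving out 1 library moved banding in KO over −0.256 to 1.17 for Igf1, −0.298 to 0.106 for Irs2 and −0.0537 to 0.117 for Akt1. For banding in WT the ranges were −0.363 to 0.0801 for Irs1, −0.0182 to 0.538 for Irs2 and −0.0662 to 0.179 for Akt1. For genotype under banding they were −0.114 to 0.129 for Igf1r, −0.00629 to 0.116 for Insr and −0.0256 to 0.105 for Foxo3. For genotype under sham they were −0.611 to 0.326 for Igf1, −0.414 to 0.143 for Irs2, −0.224 to 0.0202 for Akt1, −0.0337 to 0.0909 for Foxo1 and −0.082 to 0.148 for Foxo3. For the interaction they were −0.42 to 0.0232 for Irs1, −0.176 to 0.0754 for Akt1 and −0.101 to 0.13 for Foxo3. For averaged banding they were −0.441 to 0.303 for Igf1, −0.0845 to 0.225 for Irs2 and −0.0285 to 0.0906 for Akt1. For averaged genotype they were −0.0641 to 0.00476 for Pik3r1, −0.167 to 0.00399 for Igf1r, −0.0271 to 0.0338 for Insr and −0.0171 to 0.0979 for Foxo3.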

Other observations

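Igfbp3, which encodes the main carrier protein of IGF1 in blood, had its lower levels in KO under both surgeries. It averaged 22.1 ± 15.5 CPM in KO PAB, against 44.2 ± 13.5 in WT PAB, and 37.9 ± 12.2 CPM in KO SHAM, against 82.8 ± 27.0 in WT SHAM (SD, n = 4 each). Averaged over surgeries the log2 fold change, KO over WT, was −1.06 (SE 0.29, unadjusted p 0.00275), and it did not pass edgeR's test over all genes (adjusted p 0.989). In this comparison 5 of the 81 other pathway genes tested had an unadjusted p below 0.05, beside 664 of 13458 genes tested. Igfbp3 was named for its p in the averaged banding comparison and not for this difference, so nothing is drawn from it. The groups overlapped under both surgeries, at 10.1 to 44.0 CPM in KO PAB and 29.0 to 56.4 in WT PAB, and 29.2 to 56.0 CPM in KO SHAM and 51.5 to 107 in WT SHAM.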
